A study of Homo sapiens with 46 samples.

Results

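The enzymes that write and erase cytosine methylation were followed through human pluripotent stem cells and their early derivatives as 7 genes: the DNA methyltransferases DNMT1, DNMT3A and DNMT3B, the methylcytosine dioxygenases TET1, TET2 and TET3, and UHRF1, the partner that guides DNMT1. They were taken by gene name from 4 transcript count tables, 1 per cell type, each made on an assembly of that cell type's own transcripts, and they are 7 of 21166 genes named in those tables. Their transcripts were 19 of 32819 listed for hPSC, 34 of 54325 for ectoderm, 17 of 30409 for endoderm and 21 of 36407 for mesoderm. Only 6 of the 7 genes were in all 4 tables, because TET2 was absent from the endoderm table.

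All 46 libraries came from the H1 human pluripotent stem cell line, an established embryonic line, kept undifferentiated (hPSC) or differentiated for 5 days without a transgene or gene deletion. Ectoderm was induced in knockout serum replacement medium with A83-01, PNU-74654 and Dorsomorphin, endoderm in RPMI medium with WNT3A and Activin A, and mesoderm with Activin A for the first 24 h together with VEGF, BMP4 and bFGF. Cells were split into cytoplasm, a share of the whole nuclear pellet (nucleus), nucleoplasm and chromatin, and α-amanitin, which blocks RNA polymerase II, was in the buffers. The series' design text speaks of actinomycin D and RNA half-lives, but no library label does, so whether any library here was so treated is not given. Each of 15 of the 16 groups had 3 libraries, and mesoderm nucleoplasm had 1. One cell line stood behind all groups, and the labels do not say whether replicates were separate cultures, so every p-value measures only the spread between these libraries, which may be technical.

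Libraries held 4990408 to 21298678 counts, and levels are given as CPM, counts scaled to that total. A count of 3 is used as a detection floor and was worth 0.141 to 0.601 CPM. The labels were checked against marker genes. The pluripotency factor POU5F1 averaged 2954 CPM in hPSC cytoplasm and 6.22 in ectoderm, but 1765 in endoderm cytoplasm and 892 in mesoderm cytoplasm. The 9 listed pluripotency genes, POU5F1 among them, summed to 6747 to 7394 CPM in hPSC cytoplasm. Those present summed to 2216 to 2837 CPM in ectoderm cytoplasm, 4917 to 5563 in endoderm and 2932 to 3067 in mesoderm. In nucleus they summed to 3766 to 5052 CPM in hPSC and 2824 to 2897 in ectoderm. Ectoderm cytoplasm carried PAX6 at 203 CPM and LHX2 at 146, while SOX1 and HES5 were absent from its table. The 7 of 9 listed ectoderm genes in that table summed to 1250 to 1465 CPM in cytoplasm. The list summed to 350 to 383 CPM in hPSC cytoplasm, 254 to 290 in endoderm and 273 to 299 in mesoderm. In nucleus ectoderm (1328 to 1557 CPM) and mesoderm (1286 to 1609) overlapped. In chromatin the list summed to 1415 to 1505 CPM in ectoderm and 915 to 1103 in mesoderm. Endoderm cytoplasm carried SOX17 at 158 CPM and GATA6 at 103, with NANOG still at 57.9. The libraries labelled mesoderm gave a mixed picture. TBXT was at 0.132 CPM, PDGFRA at 2.98 and MESP1 and KDR were absent from the table, whereas BMP4 was at 212 and HAND1 at 132. The 8 of 10 listed mesoderm genes in that table summed to 462 to 505 CPM in cytoplasm, against 306 to 411 in endoderm, 43.2 to 49.1 in ectoderm and 35.8 to 40.3 in hPSC. That order held only in cytoplasm. In mesoderm they summed to 344 to 385 CPM in nucleus, 391 in nucleoplasm and 270 to 333 in chromatin. The listed genes summed to 373 to 531, 613 to 672 and 544 to 597 in endoderm, and to 401 to 472, 266 to 277 and 200 to 227 in hPSC. In mesoderm cytoplasm TFAP2A was at 168 CPM, GATA3 at 123 and KRT18 at 2184. All 9 of 9 listed genes of surface ectoderm, amnion or trophoblast were in the mesoderm table, summing to 6113 to 6956 CPM in cytoplasm, against 779 to 874 in hPSC, 1115 to 1200 in ectoderm and 3802 to 4974 in endoderm; their part in the results was not tested. "Mesoderm" below is the label of those libraries.

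The fraction labels also met mixed evidence. A sum of 5 abundant cytoplasmic mRNAs was 14304 to 19134 CPM in hPSC nucleus against 39670 to 40276 in cytoplasm, and was likewise lower in the nucleus of endoderm and mesoderm. In ectoderm it was 37824 to 49215 CPM in nucleus and 39460 to 41492 in cytoplasm, so the libraries labelled nucleus were not depleted of it. The nuclear RNA MALAT1 was lower in libraries labelled nucleus than in cytoplasm in hPSC (74.1 to 95.7 against 208 to 252 CPM) and in ectoderm (34.2 to 304 against 1112 to 2179). It overlapped between them in endoderm (29.01 to 275 against 93.4 to 170) and was higher in nucleus in mesoderm (227 to 445 against 156 to 187). In chromatin the mRNA sum was below that of cytoplasm in each cell type. In hPSC chromatin, at 21284.5 to 22408.5 CPM, it was above nucleus. MALAT1 was lower in chromatin than in cytoplasm in hPSC (94.9 to 167 CPM) and ectoderm (576 to 879). It was higher in chromatin than in cytoplasm in endoderm (413 to 483) and mesoderm (343 to 866). Fraction names below are the labels.

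Methylation of CG dinucleotides is laid down on unmethylated DNA by DNMT3A and DNMT3B and copied after replication by DNMT1, which UHRF1 brings to hemimethylated sites. TET enzymes oxidise methylcytosine, after which it is lost by dilution or by excision and repair. Pluripotent cells are known for high DNMT3B and TET1, and DNMT3B is known for splice forms that lack part of the catalytic domain.

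The clearest difference in listed isoforms concerned DNMT3B, on the plus strand of chromosome 20 at chr20:32762385-32809356 (GRCh38, GENCODE v29). The full form, ENST00000328111, has 23 exons and encodes 853 residues. ENST00000348286, reported in ectoderm, encodes 770 residues and lacks exon 10 (chr20:32793536-32793595, 60 bases), exon 21 (chr20:32805338-32805407, 70 bases) and exon 22 (chr20:32806209-32806327, 119 bases). Exon 10 alone accounts for 20 residues, and exons 21 and 22 together have 189 bases and 63 residues, so each deletion keeps the reading frame. The exons are shown here because they are what separates these forms, read from the GENCODE v29 transcripts 5′ to 3′ on the plus strand. Capitals mark the skipped exon sequence, and lower case marks the 15 bases on each side.
Exon 10 in the full form: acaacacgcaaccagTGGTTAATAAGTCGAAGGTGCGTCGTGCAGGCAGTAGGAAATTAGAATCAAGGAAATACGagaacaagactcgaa
The same junction in ENST00000348286: acaacacgcaaccagagaacaagactcgaa
Exons 21 and 22 in the full form: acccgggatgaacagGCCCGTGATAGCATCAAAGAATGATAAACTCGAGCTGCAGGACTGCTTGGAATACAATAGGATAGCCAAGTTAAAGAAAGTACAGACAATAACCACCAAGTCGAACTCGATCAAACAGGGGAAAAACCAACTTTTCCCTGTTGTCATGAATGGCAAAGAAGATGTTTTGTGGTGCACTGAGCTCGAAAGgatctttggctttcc
The same junction in ENST00000348286: acccgggatgaacaggatctttggctttcc

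DNMT3B, a de novo writer, was the member that fell furthest, and it fell in every derived cell type and every fraction tested. In cytoplasm the hPSC libraries held 1493, 1582 and 1966 CPM, against 154, 154 and 144 in ectoderm, 410, 822 and 826 in endoderm and 128, 116 and 119 in mesoderm. No derived library reached the lowest hPSC library, and 1 endoderm library lay well below the other 2. In bulk RNA a lower level in each cell and fewer cells of a type cannot be told apart. Relative to hPSC cytoplasm, DNMT3B was 11.5-fold lower in ectoderm (log2 change -3.53, SE 0.23; adjusted p = 2.47e-09), 2.84-fold lower in endoderm (-1.51, SE 0.21; adjusted p = 2.66e-05) and 14.3-fold lower in mesoderm (-3.84, SE 0.23; adjusted p = 2.18e-09), n = 3 per group. These and all later adjusted p-values for counts are from edgeR's quasi-likelihood test with Benjamini-Hochberg adjustment over all genes or transcripts tested. Fold changes include TMM scaling between libraries and can differ from a ratio of mean CPM.

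DNMT3B was also lower in the other fractions tested. In nucleus hPSC libraries held 1943, 1749 and 1888 CPM, against 123, 103 and 144 in ectoderm, 314, 291 and 392 in endoderm and 252, 277 and 256 in mesoderm, log2 changes of -3.86, -2.08 and -2.99. In chromatin, by label the RNA held with the DNA pellet, hPSC libraries held 2426, 2601 and 2964 CPM. Derived libraries there held 368, 291 and 363 in ectoderm, 323, 399 and 336 in endoderm and 170, 233 and 293 in mesoderm. The log2 changes were -2.90, -2.67 and -3.36. In neither fraction did a derived library overlap hPSC, and adjusted p ran from 2.71e-09 to 4.24e-07 over these 6 comparisons. In nucleoplasm, not tested between cell types, the hPSC libraries again lay above every derived library, with 2115, 2163 and 2331 CPM in hPSC, 167, 178 and 171 in ectoderm, 220, 208 and 200 in endoderm and 107 in the single mesoderm library.

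**Figure D1:**
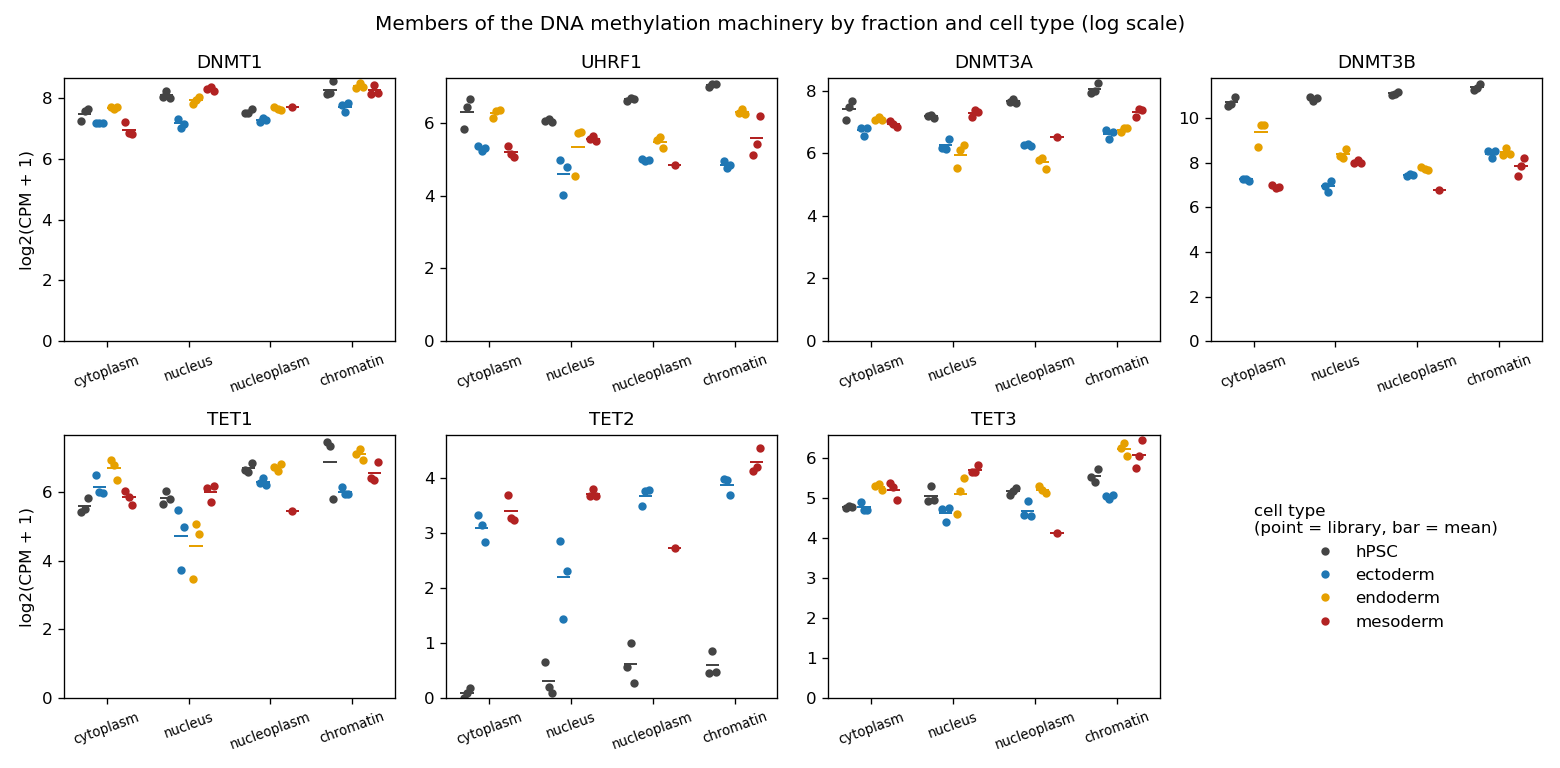
Levels of the 7 genes in each library, as log2(CPM + 1) on the y axis, by fraction on the x axis; each point is a library, colours are cell types and short bars are group means. DNMT3B in hPSC stands above every other library in all 4 fractions, and TET2 has no points for endoderm because it is not in that table.

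Besides its amount, the listed isoforms that held the DNMT3B counts differed. In hPSC the full form made 92.2 to 95.8% of DNMT3B counts (11587 to 35414 counts per library), in endoderm 59.9 to 84.7% and in mesoderm 85.4 to 91.8%. In ectoderm it was at 0 counts in 11 of 12 libraries and at 54 counts in the other, at most 2.31% of DNMT3B. The ranges of ectoderm and of the other cell types therefore did not overlap. Shares of isoforms are given as a description, without a test, since each cell type was counted on its own assembly.

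In ectoderm the form lacking exons 10, 21 and 22 made 18.0 to 49.1% of DNMT3B counts. Its share was 46.3% ± 1.46 in cytoplasm and 46.5% ± 2.91 in nucleus, 37.2% ± 2.80 in nucleoplasm and 21.9% ± 3.46 in chromatin (SD, n = 3 each), with chromatin below the other fractions in each library. Transcripts without an Ensembl name made 28.1 to 76.0% and were most of DNMT3B in chromatin. Ensembl names not in GENCODE v29 made another 4.74 to 17.4%. Whether these transcripts carry exons 10, 21 and 22 was not determined. How much ectoderm DNMT3B RNA lacks those exons is therefore not known. From counts per TPM (the authors' transcript abundance, which also divides by length), 2 of these unnamed transcripts were estimated at 6636 and 13992 bases, against 4336 annotated for the full form. The form lacking exons 10, 21 and 22 was estimated at 4048 bases, and the 2 Ensembl-named hPSC forms at 4349 and 4157. A longer transcript gives more counts per RNA molecule, so shares of counts are not shares of RNA molecules. DNMT3B gene sums therefore did not count the same lengths of RNA in ectoderm and hPSC. With TPM in limma the ectoderm falls of DNMT3B stayed called. ENST00000348286 was listed only on assemblies that include ectoderm, so its absence elsewhere is a property of the tables and not a measured 0. When ectoderm libraries were counted on the assembly combining the cell types, the form lacking all 3 exons made 12.2 to 50.3% and the full form at most 2.18%.

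**Figure D2:**
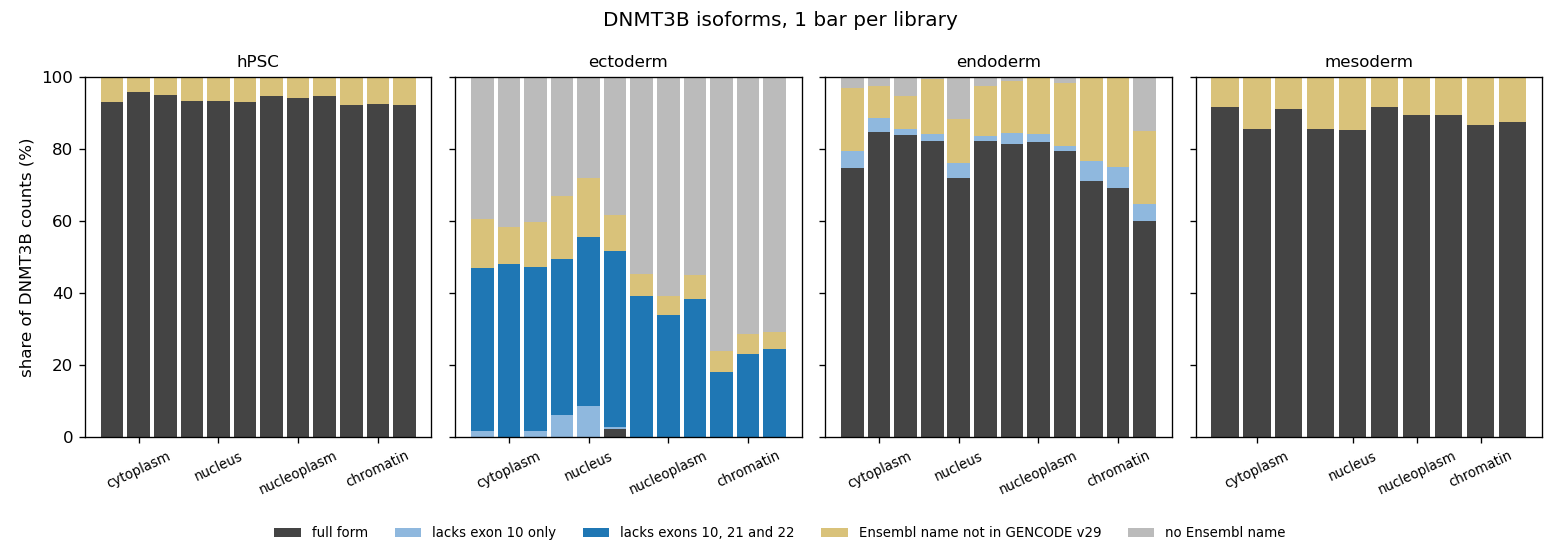
Share of each library's DNMT3B counts (y axis, %) by isoform class, with 1 bar per library grouped by fraction and 1 panel per cell type. The full form fills 92.2 to 95.8% of hPSC bars and is nearly missing from ectoderm. There most counts are on the form lacking exons 10, 21 and 22 and on transcripts without an Ensembl name, whose exons were not determined.

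DNMT3A, the other de novo writer, lies on the minus strand at chr2:25227855-25342590. In cytoplasm it was at 131, 178 and 203 CPM in hPSC, 111, 93.5 and 111 in ectoderm, 132, 143 and 133 in endoderm and 128, 121 and 113 in mesoderm. The lowest hPSC library overlapped endoderm and lay just above the highest mesoderm library. As gene sums, DNMT3A fell by 0.76 on the log2 scale in ectoderm (adjusted p = 3.78e-05), by 0.55 in endoderm (adjusted p = 0.00125) and by 0.54 in mesoderm (adjusted p = 0.000969).

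In chromatin, DNMT3A was at 242, 251 and 304 CPM in hPSC, 106, 86.4 and 102 in ectoderm, 101, 110 and 111 in endoderm and 140, 169 and 167 in mesoderm. No library overlapped between hPSC and a derived type there, and the log2 changes were -1.37 in ectoderm, -1.06 in endoderm and -0.58 in mesoderm (adjusted p = 3.87e-06, 5.2e-05 and 0.00499). In nucleus it fell in ectoderm (log2 change -0.85, adjusted p = 0.000163) and endoderm (-0.83, adjusted p = 0.00025), while mesoderm, at 141, 165 and 160 CPM against 146, 148 and 137 in hPSC, did not pass.

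The gene sums of DNMT3A did not count the same transcripts in every cell type. Forms with a distal start (first base chr2:25342590 or chr2:25341885) encode 912 residues, apart from ENST00000406659 with 4 exons and 166 residues, and short forms begin at an internal start (chr2:25252311, 723 or 689 residues). Distal forms made 18.4 to 36.2% of DNMT3A counts in hPSC and 23.2 to 52.8% in mesoderm, but the ectoderm and endoderm assemblies held none. On the combined assembly, ectoderm had 44.0 to 65.7% in distal forms and 1.37 to 1.72 times the DNMT3A counts of its own assembly, whereas the other 6 members changed by 0.98 to 1.13 times. Mean ectoderm DNMT3A on that assembly was 143 CPM in cytoplasm, 118 in nucleus and 154 in chromatin.

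Counting only the Ensembl transcripts listed in all 4 tables, which for DNMT3A leaves internal-start forms, ended several of those calls. The ectoderm log2 change was then -0.28 in cytoplasm (adjusted p = 0.083) and -0.31 in nucleus (adjusted p = 0.22), and -0.54 in chromatin (adjusted p = 0.0057). The endoderm values were -0.16 in cytoplasm, -0.05 in nucleus and -0.28 in chromatin, none past the threshold, with adjusted p from 0.11 to 0.85. Mesoderm kept its falls in cytoplasm (-0.71, adjusted p = 0.000814) and chromatin (-0.87, adjusted p = 0.000511). For DNMT3B the same count holds the full form and ENST00000696232, and the full form was at 0 in 11 of 12 ectoderm libraries. Its ectoderm result there restates the isoform difference and is no separate support for the fall of the gene sum. In endoderm and mesoderm DNMT3B stayed called under that count. With TPM in limma, DNMT3A in cytoplasm changed by -0.21 in ectoderm (adjusted p = 0.36) and -0.03 in endoderm (adjusted p = 0.91).

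**Figure D3:**
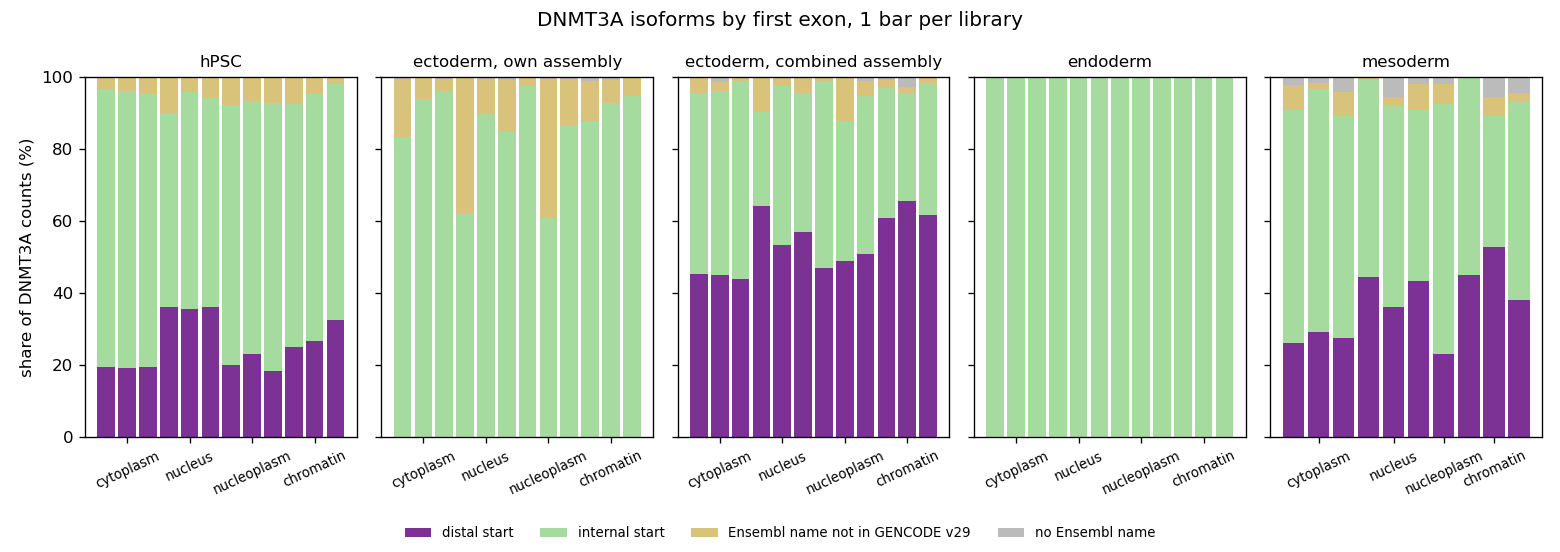
Share of each library's DNMT3A counts (y axis, %) from forms with a distal or an internal start, with 1 bar per library grouped by fraction; ectoderm is drawn on both assemblies. Distal-start forms are missing from the own assemblies of ectoderm and endoderm and make 44.0 to 65.7% of ectoderm counts on the combined assembly.

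The share of distal DNMT3A forms was not raised in every nuclear fraction. In hPSC it was 18.4 to 23.2% in nucleoplasm, overlapping cytoplasm (19.3 to 19.6%), and 24.9 to 32.4% in chromatin. In mesoderm it was 23.2% in the single nucleoplasm library and 26.0 to 29.1% in cytoplasm. It was 36.3 to 44.5% in mesoderm nucleus and 38.2 to 52.8% in its chromatin. Within hPSC, the share was higher in nucleus (35.5 to 36.2%) than in cytoplasm. Single isoforms moved the same way: the distal form ENST00000321117 averaged 32.5 CPM in cytoplasm and 51.3 in nucleus (log2 change -0.68, adjusted p = 0.0236), and the internal form ENST00000380746 averaged 110 and 67.6 (+0.67, adjusted p = 0.00145). That name is uncertain: the hPSC transcript was estimated from counts per TPM at 8876 bases, against 4279 annotated for ENST00000321117 and 9501 for ENST00000264709. In mesoderm the distal form ENST00000264709 was lower in cytoplasm, at 29.6 against 60.8 CPM (-0.70, adjusted p = 0.0134). In endoderm the internal form ENST00000380746 was higher in cytoplasm, at 115 against 55.8 CPM (+0.60, adjusted p = 0.00459). The call for ENST00000321117 was lost without hPSC cytoplasm replicate 1 or hPSC nucleus replicate 2 or 3, and that for ENST00000264709 without mesoderm cytoplasm replicate 1 or 2.

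DNMT1, the maintenance methyltransferase on the minus strand at chr19:10133345-10231286, changed less. In cytoplasm it was at 149, 190 and 198 CPM in hPSC, 145, 144 and 144 in ectoderm, 206, 201 and 208 in endoderm and 146, 114 and 112 in mesoderm. Ectoderm and mesoderm lay below all hPSC libraries, by a narrow margin to the lowest, and endoderm lay above them. The fall was 1.29-fold in ectoderm (log2 change -0.37, SE 0.11; adjusted p = 0.0081) and 1.5-fold in mesoderm (-0.58, SE 0.11; adjusted p = 0.000332), and endoderm did not pass.

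Ectoderm DNMT1 was also lower in nucleus (158, 129 and 142 CPM against 263, 298 and 254 in hPSC; log2 change -0.87, adjusted p = 0.000152) and in chromatin (216, 184 and 227 against 277, 285 and 376; -0.51, adjusted p = 0.0175). The chromatin call was lost without hPSC chromatin replicate 3 or ectoderm chromatin replicate 1 or 2. Endoderm and mesoderm DNMT1 did not pass in either fraction, with nucleus libraries at 224 to 262 and 301 to 326 CPM. The cytoplasm falls in ectoderm and mesoderm did not pass when only transcripts shared by all tables were counted (-0.29, adjusted p = 0.11, and -0.33, adjusted p = 0.085). That count also moved calls the other way. Of 14 member values uncalled in the main fits, 2 passed on it, DNMT1 in endoderm cytoplasm among them. With TPM in limma the ectoderm falls in cytoplasm (-0.30, adjusted p = 0.15) and chromatin (-0.29, adjusted p = 0.28) did not pass.

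UHRF1, which reads hemimethylated DNA for DNMT1, lies on the plus strand at chr19:4903080-4962154 and fell in ectoderm and mesoderm in each fraction tested. In cytoplasm it was at 55.6, 86.0 and 100.4 CPM in hPSC, 40.0, 36.7 and 38.8 in ectoderm, 69.0, 78.8 and 81.4 in endoderm and 40.0, 34.5 and 32.3 in mesoderm. Ectoderm and mesoderm lay below hPSC without overlap, and endoderm lay inside the hPSC range. The fall was 2.19-fold in ectoderm (log2 change -1.13, SE 0.16; adjusted p = 1.05e-05) and 2.35-fold in mesoderm (-1.23, SE 0.16; adjusted p = 7.24e-06).

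Chromatin showed the widest separation of UHRF1. It was at 126, 133 and 134 CPM in hPSC, 30.2, 26.1 and 27.9 in ectoderm, 76.4, 82.8 and 74.9 in endoderm and 33.7, 42.1 and 72.2 in mesoderm, and all derived libraries lay below hPSC. The log2 change was -2.16 in ectoderm (4.45-fold, adjusted p = 1.79e-06) and -1.26 in mesoderm (adjusted p = 0.000268), while endoderm did not pass. In nucleus, UHRF1 fell in ectoderm, at 30.4, 15.3 and 26.7 CPM against 65.6, 68.6 and 64.4 in hPSC (-1.44, adjusted p = 5.57e-05). It fell in mesoderm too, at 46.0, 49.2 and 44.0 CPM (-0.67, adjusted p = 0.0143), a call that ended without mesoderm nucleus replicate 3 and whose sign turned with the authors' TPM (+0.22, adjusted p = 0.54 by limma; -0.51 with total counts, adjusted p = 0.18). Summed proliferation genes (5 genes, MKI67 among them) were 929 to 1180 CPM in hPSC cytoplasm, 799 to 952 in ectoderm, 880 to 978 in endoderm and 533 to 643 in mesoderm; in chromatin they were 1126 to 1285 CPM in hPSC, 479 to 539 in ectoderm, 888 to 1081 in endoderm and 801 to 1017 in mesoderm. Of the 5 proliferation genes, 2 rose and 3 fell in ectoderm cytoplasm (median log2 change -1.51), and 0 rose and 4 fell in ectoderm chromatin (median -1.99). In mesoderm 0 rose and 3 fell in cytoplasm (median -1.51), and 1 rose and 3 fell in chromatin (median -1.24). In endoderm 1 rose and 3 fell in cytoplasm, and 2 rose and 3 fell in chromatin (median -0.54 in each). Their part in the DNMT1 and UHRF1 values was not tested.

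Among the erasers, TET1, the dioxygenase typical of pluripotent cells (plus strand, chr10:68560656-68694482), moved in opposite directions in cytoplasm and nucleus. In cytoplasm it was at 41.8, 44.7 and 55.7 CPM in hPSC, 88.0, 62.9 and 62.1 in ectoderm, 121, 108 and 80.7 in endoderm and 64.2, 56.9 and 48.4 in mesoderm. Ectoderm and endoderm lay above hPSC without overlap, and mesoderm overlapped it. TET1 was 1.43-fold higher in ectoderm (log2 change +0.52, SE 0.15; adjusted p = 0.00632), and endoderm was 1.87-fold higher (+0.90, SE 0.15; adjusted p = 0.000158).

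In nucleus the same cell types were below hPSC. TET1 was at 49.6, 64.6 and 54.8 CPM in hPSC, 43.8, 12.3 and 30.2 in ectoderm, 10.0, 32.4 and 26.3 in endoderm and 68.8, 51.4 and 71.7 in mesoderm. TET1 fell there by 0.99 on the log2 scale in ectoderm (SE 0.34; adjusted p = 0.0216) and by 0.98 in endoderm (SE 0.34; adjusted p = 0.0238). The lowest TET1 libraries were ectoderm nucleus replicate 2 and endoderm nucleus replicate 1. They also had the lowest MALAT1 of their groups, at 34.2 and 29.01 CPM against 166 to 304 and 87.1 to 275 in the others. The low values were not particular to TET1. Ectoderm nucleus replicate 2 was lowest of its group for every member (UHRF1 at 15.3 CPM against 26.7 and 30.4). Endoderm nucleus replicate 1 was lowest for DNMT1, DNMT3A, TET1, TET3 and UHRF1 (UHRF1 at 22.4 CPM against 51.5 and 52.5), but not for DNMT3B. The part of these libraries in the results was not tested. Without ectoderm nucleus replicate 2 the TET1 change in ectoderm was -0.64. Without endoderm nucleus replicate 1 the TET1 change in endoderm was -0.72, and neither passed. Leaving out hPSC nucleus replicate 2 or 3 also ended both TET1 calls, and total-count scaling ended that in ectoderm (adjusted p = 0.08).

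In chromatin, 1 hPSC library stood apart for TET1, with 173, 161 and 53.9 CPM, against 69.3, 60.6 and 60.7 in ectoderm, 137, 151 and 120 in endoderm and 84.0, 80.2 and 116 in mesoderm. The ectoderm change of -0.96 (adjusted p = 0.0184) rested on overlapping libraries and was lost without hPSC chromatin replicate 1 (adjusted p = 0.08) or 2 (adjusted p = 0.062) and with TPM in limma (-0.49, adjusted p = 0.2).

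TET2 (plus strand, chr4:105145875-105279816) was outside the tests between cell types and is described only. In hPSC it had 0 to 14 counts per library, at most 0.998 CPM, and in cytoplasm 0, 1 and 2 counts, all below the floor. Ectoderm cytoplasm held 8.97, 7.77 and 6.12 CPM and mesoderm cytoplasm 11.8, 8.63 and 8.37. Chromatin held 14.7, 14.4 and 11.9 CPM in ectoderm and 16.4, 17.2 and 22.2 in mesoderm. Every ectoderm and mesoderm library was thus above every hPSC library. The hPSC table listed 1 TET2 transcript with no Ensembl name, while the ectoderm table listed 3, and reads of a transcript missing from an assembly would not be counted.

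TET3 (plus strand, chr2:73986404-74108176), the dioxygenase known from the zygote, was moderately higher in endoderm and mesoderm by counts. In cytoplasm it was at 25.9, 26.9 and 26.7 CPM in hPSC, 28.8, 25.4 and 25.1 in ectoderm, 38.4, 39.8 and 35.8 in endoderm and 40.8, 38.1 and 30.1 in mesoderm. Endoderm and mesoderm lay above hPSC and ectoderm overlapped it. The log2 change was +0.30 in endoderm (adjusted p = 0.0295) and +0.40 in mesoderm (adjusted p = 0.00436).

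In chromatin TET3 was at 45.6, 41.8 and 52.3 CPM in hPSC, 32.2, 30.7 and 33.1 in ectoderm, 75.7, 82.0 and 65.6 in endoderm and 52.9, 66.3 and 87.1 in mesoderm, with no overlap with hPSC. The log2 change there was +0.93 in endoderm (adjusted p = 0.000587), +0.72 in mesoderm (adjusted p = 0.0042) and -0.47 in ectoderm (adjusted p = 0.0345). In nucleus it was +0.44 in endoderm (adjusted p = 0.0439), with libraries at 23.5, 35.3 and 44.9 CPM overlapping the hPSC range of 29.7 to 38.6, and +0.49 in mesoderm (adjusted p = 0.0274), at 49.4, 49.6 and 55.8 CPM. The endoderm cytoplasm call was lost without hPSC replicate 2 or 3 or endoderm replicate 2, and the ectoderm chromatin call without hPSC replicate 1 or 3 or any ectoderm replicate. Both nucleus calls were lost without hPSC nucleus replicate 1 or 3, that of endoderm also without endoderm replicate 3 and that of mesoderm without mesoderm replicate 1 or 3. The cytoplasm and chromatin calls in mesoderm and the chromatin call in endoderm held with each library left out.

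The TET3 rise in endoderm turned with the unit. With the authors' TPM, limma gave log2 changes of -0.18 in cytoplasm, -0.65 in nucleus (adjusted p = 0.0399) and -0.18 in chromatin, and in mesoderm +0.11 in cytoplasm (adjusted p = 0.63) and +0.49 in chromatin (adjusted p = 0.078). In endoderm nucleus total-count scaling left a change of 0.078 (adjusted p = 0.77). The main TET3 transcript was estimated from counts per TPM at 5854 bases on the hPSC assembly, 12092 on that of ectoderm, 10299 on that of endoderm and 8317 on that of mesoderm, so a count did not stand for the same length of RNA in each table. TET1 was estimated at 9867, 9849 and 9884 bases in hPSC, ectoderm and endoderm, but in mesoderm it was split into pieces of 4231 and 6181 bases.

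**Figure D4:**
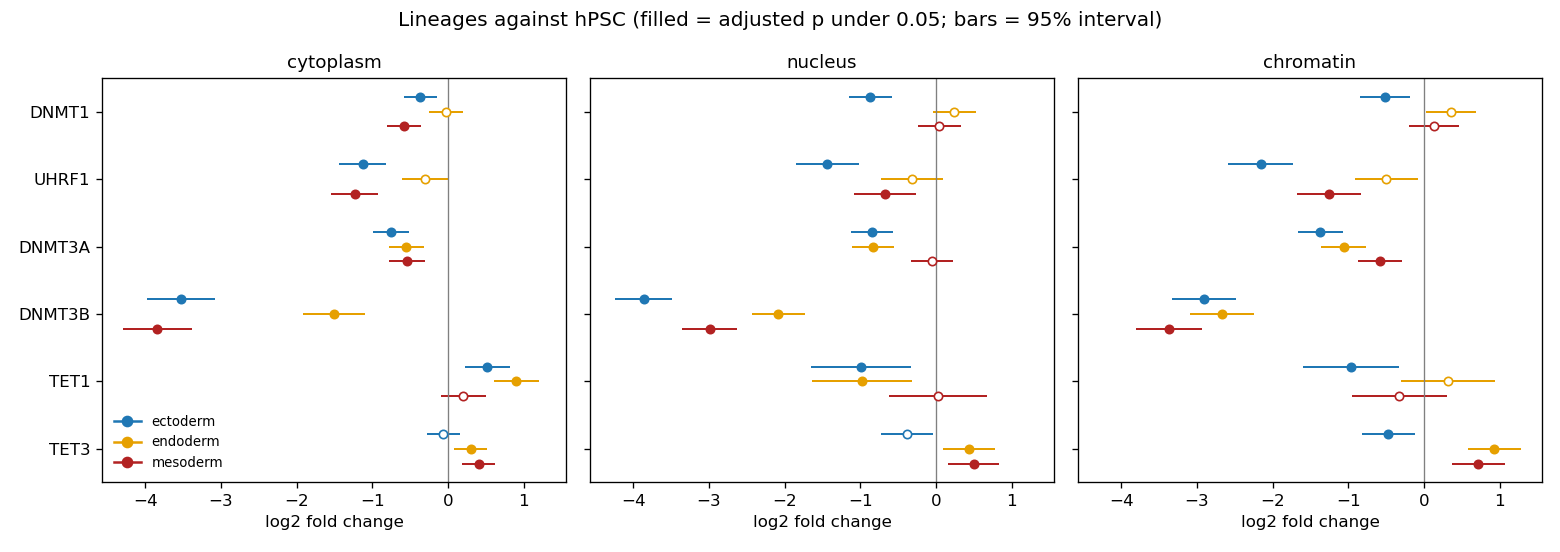
Log2 fold change of each gene in ectoderm, endoderm and mesoderm against hPSC (x axis), in cytoplasm, nucleus and chromatin; bars are 95% intervals and filled points passed an adjusted p of 0.05. DNMT3B lies left of 0 throughout, UHRF1 is lowest in ectoderm chromatin at -2.16, and TET1 is right of 0 in cytoplasm and left of it in nucleus for ectoderm and endoderm.

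Counts over the 6 tested members are set here beside the share of all 10672 genes (10651 in nucleus) that passed in the same direction. In ectoderm cytoplasm, where 76.1% of genes were called, 1 member was higher (39.1% of genes) and 4 were lower (37%). In ectoderm nucleus, with 57.7% called, 0 were higher (28.8%) and 5 lower (28.9%), and in ectoderm chromatin, with 62.5% called, 0 were higher (32.4%) and 6 lower (30.1%). Endoderm had 2 members higher (27.5%) and 2 lower (32.2%) in cytoplasm, with 59.7% of genes called, 1 higher (28.8%) and 3 lower (28.3%) in nucleus, with 57% called, and 1 higher (31.1%) and 2 lower (30.8%) in chromatin, with 61.9% called. Mesoderm had 1 higher (35%) and 4 lower (33.1%) in cytoplasm, with 68.1% called, 1 higher (26.1%) and 2 lower (27.9%) in nucleus, with 54% called, and 1 higher (28.6%) and 3 lower (25.8%) in chromatin, with 54.3% called. Most genes changed in these comparisons, so the counts of called members were near the background in several of them. The median member log2 change in cytoplasm, nucleus and chromatin was -0.56, -0.93 and -1.17 in ectoderm, -0.17, -0.57 and -0.09 in endoderm and -0.56, -0.01 and -0.46 in mesoderm, against -0.05 to 0.04 over all genes.

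On the scale per length, the order of the genes in hPSC cytoplasm was led by DNMT3B at 409 TPM ± 106, with DNMT3A at 50.2 ± 18.1, DNMT1 at 42.9 ± 10.4 and UHRF1 at 22.3 ± 8.63 (SD, n = 3). DNMT3A and DNMT1 lay within their spread of each other. TET1, at 4.97 TPM ± 1.31, and TET3, at 4.67 ± 0.693, lay within theirs too. In ectoderm cytoplasm DNMT3A (41.7 ± 6.99) was above DNMT3B (36.0 ± 3.85) and DNMT3B above DNMT1 (34.2 ± 4.23) in each of the 3 libraries, though the ranges over libraries overlapped and that assembly leaves out the distal DNMT3A forms. They were followed by UHRF1 at 12.3 ± 1.75, TET1 at 8.83 ± 1.99, TET3 at 2.64 ± 0.364 and TET2 at 0.963 ± 0.163 TPM. Mesoderm had DNMT3A, DNMT3B and DNMT1 at 34.5 ± 4.31, 33.0 ± 2.68 and 27.3 ± 4.90 TPM. In endoderm DNMT3B still led at 176 ± 59.0 TPM, with DNMT3A at 46.8 ± 1.26.

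The division between cytoplasm and nucleus was asked within each cell type. DNMT1 was lower in cytoplasm than in nucleus in all 4 by the fitted values: by 0.67 on the log2 scale in hPSC (adjusted p = 0.000769), 0.32 in ectoderm (adjusted p = 0.01), 0.97 in endoderm (adjusted p = 1.7e-05) and 1.24 in mesoderm (adjusted p = 5.6e-05). Libraries overlapped only in ectoderm, where the mean was 144 CPM in cytoplasm and 143 in nucleus, and the call was lost without cytoplasm replicate 1 or 3, and the sign turned when libraries were scaled by total counts (0.015) or with TPM (0.031). The TMM scaling moved the median of all genes by 0.345 in ectoderm and by 0.70 in endoderm relative to total counts, so ectoderm and endoderm fraction values are relative to that shift. The isoforms of DNMT1 that led were ENST00000340748 in hPSC (99.3 against 182 CPM, log2 change -0.91, adjusted p = 0.00383) and mesoderm (79.3 against 189, -0.92, adjusted p = 0.00187). ENST00000676820 in mesoderm was at 8.07 against 54.2 CPM (-2.42, adjusted p = 0.00129), and ENST00000359526 in endoderm at 50.6 against 82.2 (-1.15, adjusted p = 0.00646), with overlapping libraries and a call lost under total-count scaling (-0.70, adjusted p = 0.092).

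TET1 showed the reverse in 2 cell types. It was 2.05-fold higher in cytoplasm than in nucleus in ectoderm (log2 change +1.03, SE 0.26; adjusted p = 0.00459) and 2.91-fold higher in endoderm (+1.54, SE 0.24; adjusted p = 3.83e-05), without overlap in either, while hPSC and mesoderm did not pass. A single transcript without an Ensembl name carried 99.4% of TET1 in endoderm and averaged 103 CPM in cytoplasm and 22.7 in nucleus (+1.78, adjusted p = 0.000385). Tested as a difference of differences against hPSC, the cytoplasm-to-nucleus balance of TET1 was shifted towards cytoplasm by 1.49 in ectoderm (SE 0.38; adjusted p = 0.00242), and by 1.90 in the endoderm libraries (SE 0.38; adjusted p = 0.000657). DNMT1 was shifted in ectoderm by 0.48 (SE 0.19; adjusted p = 0.0321), a call lost without hPSC nucleus replicate 2, ectoderm cytoplasm replicate 2 or ectoderm nucleus replicate 1 or 3, and on shared Ensembl transcripts (0.63, adjusted p = 0.062).

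Background for those differences was 52.4% of 10681 genes in ectoderm, 38.6% in endoderm and 25.3% in mesoderm, against 2, 1 and 0 of 6 members. In mesoderm edgeR called none of the 6, with 2 at an unadjusted p under 0.05, and DESeq2 called 2. The ectoderm nucleus libraries were those not depleted of cytoplasmic mRNA, a property whose part in the ectoderm result was not tested.

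Other members divided less regularly. DNMT3B was 2.01-fold lower in cytoplasm than in nucleus in mesoderm (log2 change -1.01, adjusted p = 0.000707), where its full form was at 108 against 229 CPM (-0.74, adjusted p = 0.0261, a call lost without any 1 of the 6 libraries). DNMT3A was higher in endoderm cytoplasm, at 132, 143 and 133 CPM against 44.9, 67.5 and 75.2 in nucleus (+0.44, adjusted p = 0.00847). TET3 was lower in cytoplasm in hPSC (-0.38, adjusted p = 0.0328; lost without any 1 of the 3 cytoplasm libraries or nucleus replicate 2, and at 0.071 with total counts) and in endoderm (-0.54, adjusted p = 0.00562), where libraries overlapped and total-count scaling turned the sign (+0.14). In ectoderm UHRF1 (+0.37, adjusted p = 0.0389) and TET2 (+0.74, adjusted p = 0.0483, overlapping libraries) were higher in cytoplasm. The TET2 call was lost without ectoderm cytoplasm replicate 1 or 2 or nucleus replicate 2 or 3. The UHRF1 call was lost without ectoderm cytoplasm replicate 2 and with TPM in limma (adjusted p = 0.054).

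Called in this comparison were 2 of 6 members in hPSC, where 65.4% of genes were called, 4 of 7 in ectoderm (53.7%), 4 of 6 in endoderm (69.8%) and 2 of 7 in mesoderm (63.3%). The members were thus near the background in ectoderm and endoderm and below it in hPSC and mesoderm. Of their isoforms, 5 of 17 tested were called in hPSC (39.7% of all transcripts), 1 of 24 in ectoderm (13.7%), 4 of 15 in endoderm (42.1%) and 5 of 21 in mesoderm (32%).

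**Figure D5:**
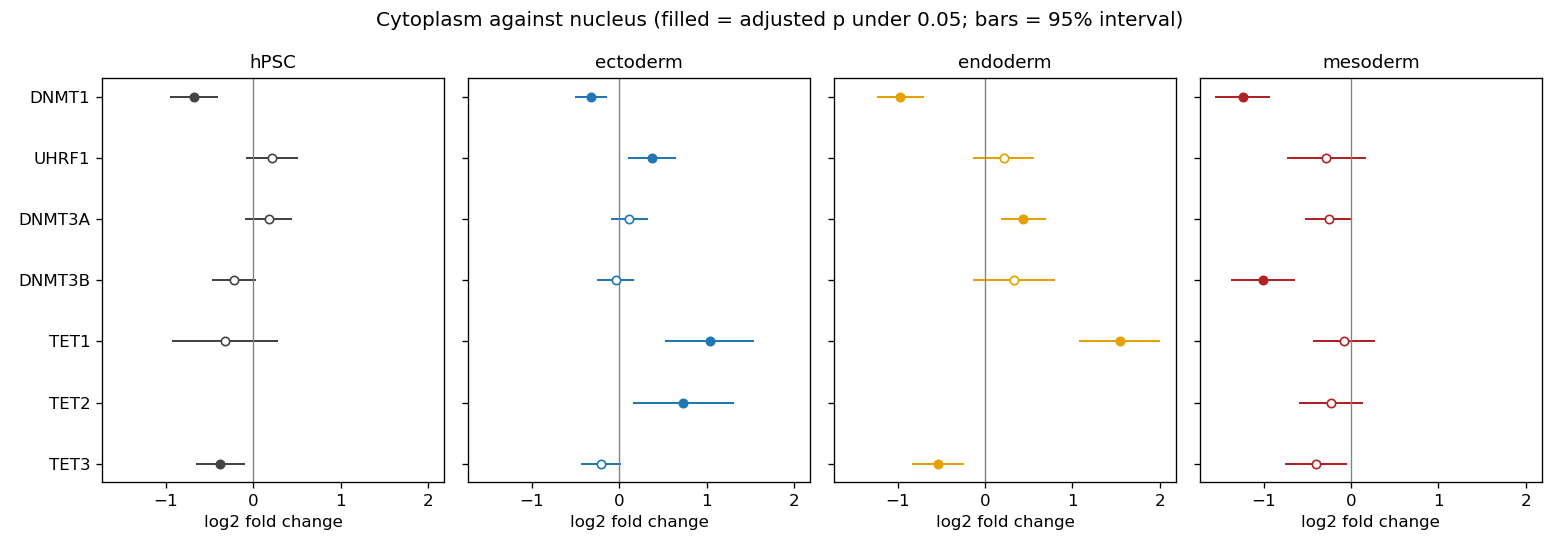
Log2 fold change between cytoplasm and nucleus within each cell type (x axis; right of 0 is higher in cytoplasm); bars are 95% intervals and filled points passed an adjusted p of 0.05. DNMT1 lies left of 0 in all 4 panels, although in ectoderm its sign turned under total-count scaling and with TPM, and TET1 lies right of 0 in ectoderm and endoderm; TET2 was not tested in hPSC or endoderm.

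Between chromatin and nucleoplasm fewer members moved. In hPSC, DNMT1 was higher in chromatin (277, 285 and 376 against 182, 181 and 198 CPM; log2 change +0.51, adjusted p = 0.0154), the 1 of 6 called where 30.5% of genes were called, and the call was lost without any 1 of the 3 nucleoplasm libraries. In ectoderm DNMT3B was 1.62-fold higher in chromatin, at 368, 291 and 363 against 167, 178 and 171 CPM (+0.69, adjusted p = 0.000255), without overlap. Transcripts without an Ensembl name held 70.7 to 76.0% of its counts in chromatin and 54.7 to 60.8% in nucleoplasm. Their part in that difference was not tested. UHRF1 was lower in ectoderm chromatin than in nucleoplasm (-0.41, adjusted p = 0.0309) with overlapping libraries, at 30.2, 26.1 and 27.9 against 31.1, 29.97 and 30.5 CPM. That call was lost with any 1 of the 6 libraries left out and turned with TPM (+0.32). Ectoderm thus had 2 of 7 called, where 44.1% of genes were. In endoderm DNMT3A (+0.47, adjusted p = 0.00775) and TET3 (+0.46, adjusted p = 0.0186) were higher in chromatin, 2 of 6 where 53.5% of genes were called; DNMT3A was lost without nucleoplasm replicate 3, and TET3 without chromatin replicate 2 or nucleoplasm replicate 2 or 3.

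Other genes of the pathway moved in both directions. Of 35 listed partners 30 were tested in cytoplasm, of which 13 rose and 13 fell in ectoderm (39.1% and 37% of all genes), 8 rose and 10 fell in endoderm (27.5% and 32.2%), and 12 rose and 11 fell in mesoderm (35% and 33.1%). Among 6 tested partners of maintenance methylation, 5 fell in ectoderm, 4 in endoderm and 5 in mesoderm; these and the group counts that follow are read against the same shares. CDCA7L, a paralogue of the HELLS activator CDCA7, fell from 122 CPM in hPSC to 12.1 in ectoderm (log2 change -3.38), 51.8 in endoderm (-1.45) and 24.3 in mesoderm (-2.38). CDCA7 fell from 79.0 to 8.38 CPM in ectoderm (-3.30). HELLS, the remodeller that opens nucleosomal DNA for methylation, fell from 168 to 47.9 CPM in endoderm (-2.03), with 5 transcripts in the hPSC table and 1 in that of endoderm. PCNA, the sliding clamp that holds DNMT1 at the fork, fell from 332 CPM to 74.1 in ectoderm (-2.22) and 145 in mesoderm (-1.24). UHRF2, the paralogue of UHRF1, rose from 31.2 to 79.0 CPM in ectoderm (+1.29), with 1 transcript in the hPSC table and 5 in that of ectoderm. The part of the assemblies in both values was not tested.

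The list for excision and repair held 9 genes, among them the stress-response genes GADD45A and GADD45B. Of these 9, 4 rose and 2 fell in ectoderm, 2 rose and 2 fell in endoderm, and 4 rose and 1 fell in mesoderm. The 2 that rose in endoderm were GADD45A and GADD45B. GADD45A, a stress-response gene linked to demethylation, rose from 21.5 CPM in hPSC to 146 in ectoderm (+2.71), 61.7 in endoderm (+1.31) and 88.3 in mesoderm (+2.00). GADD45B rose from 7.18 CPM to 19.8 in endoderm (+1.26) and 37.5 in mesoderm (+2.36). Readers of methylated DNA had 6 higher and 2 lower of 8 in ectoderm, 4 and 0 in endoderm and 5 and 2 in mesoderm. The methyl-CG binding factor ZBTB33 rose from 17.3 CPM to 45.6 in ectoderm (+1.32) and 33.1 in endoderm (+0.70), and its relative ZBTB4 from 22.7 to 58.5 in mesoderm (+1.32).

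Of 5 genes supplying the methyl donor, 1 rose and 3 fell in each derived type. MAT2A, which makes S-adenosylmethionine, fell from 350 to 170 CPM in mesoderm (-1.09). MTR, methionine synthase, was at 25.7 CPM in hPSC and 0.213 in endoderm, whose assembly held 1 MTR transcript with no Ensembl name. That value may not count the gene's main transcript. The 3 endoderm falls of this group, and the 10 of all partners, include it. Adjusted p of the partner values given here, leaving MTR aside, was at most 0.00322.

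Genes whose levels followed a member most closely were named by Pearson r of log2(CPM + 1) over the 16 group means, among 9175 genes. These points share libraries and depth, and r is a description. DNMT1 was nearest to CLTCL1 (r = 0.963), ESPL1 (0.953) and MTOR (0.944), and UHRF1 to BEND3 (0.948), DHX33 (0.935) and HK2 (0.926). DNMT3A was nearest to CTBP2 (0.957), JADE1 (0.936) and MTMR12 (0.924). DNMT3B was nearest to NEFL (0.938), PIM2 (0.926) and HDAC2-AS2 (0.924), with the 4 hPSC groups far above the rest. TET1 was nearest to ERCC6L2 (0.949), HYCC1 (0.933) and ASXL2 (0.909), and TET3 to ATG14 (0.929), SLC7A5P2 (0.906) and NAA40 (0.898).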

How the data were processed

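RNA was sequenced from 46 libraries. The authors deposited transcript counts and TPM per library for 4 own assemblies and a combined one. The submitters' processing notes name STAR, RSEM and hg38, without roles; whether counts are rounded RSEM estimates, and whether counting used strand, is not given in the sources used here. The deposited TPM values divide by transcript length and library. One ectoderm column matched no sample (1 in all) and was not used. The library column named with replicate 3 of mesoderm nucleoplasm was used for its only sample.

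Counts were summed per gene. edgeR 4.0.16 (quasi-likelihood, TMM, filterByExpr with a minimum count of 10; R 4.3.3) compared lineages over genes in all 4 tables within a fraction, and fractions within a cell type; an adjusted p under 0.05 was called. Alternatives were DESeq2 1.42.0, total-count scaling, no filter, limma 3.58.1 on log2(TPM + 1) for values of at least 1 TPM in 3 libraries, shared Ensembl transcripts, the combined assembly, a replicate block and each library left out. The edgeR fit was also run on simulated counts, with the same dispersion for every gene and only a small set changed. These data differ from that setting, so the run is no support for the calls here. Members and lists were chosen with earlier results of these data known. All 7 members are named; isoforms were named at a share of at least 10%, partners as up to 3 called per direction, with at least 10 CPM and no overlap. Of 45 replicate pairs, 0 were identical. Over genes, ectoderm nucleus replicate 2 differed from replicates 1 and 3 by a chi-square per degree of freedom of 50.2 and 48.8. Those 2 differed by 9.05. Endoderm nucleus replicate 1 differed from replicates 2 and 3 by 187 and 115, and those by 41.0. Transcript lengths were estimated assuming 200-base fragments; 32 of 36 annotated forms came within 10%. Intervals at 95% are 1.96 SE. No protein sequences were used here.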

Additional observations from a re-analysis of the deposited data

Results flagged for a closer look

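A difference in the cytoplasm-to-nucleus balance between a derived cell type and hPSC, tested as an interaction in edgeR, was found for TET1 in ectoderm (1.49 on the log2 scale) and in endoderm (1.90), and for DNMT1 in ectoderm (0.48). The TET1 differences passed with each library left out in turn. They concern only libraries labelled cytoplasm and nucleus. Mean TET1 in nucleoplasm and chromatin lay above that in nucleus in both cell types. The DNMT1 difference was lost without hPSC nucleus replicate 2, ectoderm cytoplasm replicate 2, or ectoderm nucleus replicate 1 or 3. No check of single outlying libraries was applied to groups of 3.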

How the results depend on the processing

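Of 59 called gene results, 59 kept direction and call with DESeq2, 58 without the filter, 57 with the replicate block, 52 with total-count scaling, 43 with TPM, 14 of 22 on shared Ensembl transcripts and 6 of 6 on the combined assembly. With each library left out in turn 41 of 59 held throughout, and 7 of 10 isoform results; of those 10, 9 held with total counts and 10 with DESeq2, without the filter and with the block.

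The sign turned with TPM for TET3 in endoderm cytoplasm (-0.18), nucleus (-0.65) and chromatin (-0.18), UHRF1 in mesoderm nucleus (0.22), DNMT1 between cytoplasm and nucleus in ectoderm (0.031) and UHRF1 between chromatin and nucleoplasm in ectoderm (0.32). It turned with total counts for DNMT1 in ectoderm (0.015) and TET3 in endoderm (0.14), both between cytoplasm and nucleus. The cause was not tested.

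Counts of called members moved as follows. Shared Ensembl transcripts, which test 3 members, gave 1, 2 and 3 in ectoderm cytoplasm, nucleus and chromatin, 2 and 1 in endoderm cytoplasm and nucleus, 2, 1 and 2 in mesoderm cytoplasm, nucleus and chromatin, and 0 for the differences of ectoderm and endoderm. TPM gave 2 in endoderm cytoplasm, 5 in mesoderm nucleus, 4, 3 and 5 for the differences in ectoderm, endoderm and mesoderm, 1 and 7 between cytoplasm and nucleus in ectoderm and mesoderm, and 5, 4 and 5 between chromatin and nucleoplasm in hPSC, ectoderm and endoderm. Total counts gave 3 and 2 for the differences in endoderm and mesoderm, 1 between cytoplasm and nucleus in hPSC, and 2 and 5 between chromatin and nucleoplasm in hPSC and endoderm. DESeq2 gave 2 for the mesoderm difference, 4 between cytoplasm and nucleus in mesoderm and 5 ectoderm isoforms. No filter gave 1, and the combined assembly 4, between chromatin and nucleoplasm in ectoderm.

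With 1 library left out, counts ran from 2 to 4 in endoderm nucleus and 1 to 3 in mesoderm nucleus. The differences ran from 1 to 2 in ectoderm, 1 to 2 in endoderm and 0 to 3 in mesoderm. Cytoplasm against nucleus ran from 1 to 3 in hPSC and 2 to 4 in ectoderm. Chromatin against nucleoplasm ran from 0 to 2 in hPSC, 1 to 2 in ectoderm and 0 to 2 in endoderm. Isoforms ran from 2 to 5 in hPSC, 0 to 1 in ectoderm and 2 to 4 in mesoderm.

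Replicate numbers were not used to pair the samples in the main fits. Correlations of same-numbered deviations ran from -0.388 to 0.419, and in no pair of groups did all 3 exceed 0.1. With 3 libraries per group this rule cannot exclude pairing. The replicate block gave 0 called ectoderm isoforms, and ended TET3 in endoderm nucleus (0.43, adjusted p = 0.063) and TET2 in ectoderm (0.73, adjusted p = 0.067) by edgeR. Each number correlated best with its own in all 3 only between ectoderm chromatin and nucleoplasm.

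Over all genes, TPM called 7557 against 4312 between chromatin and nucleoplasm in hPSC (2613 without nucleoplasm replicate 1), 4536 against 2703 for the mesoderm difference, and 5207 against 8586 between cytoplasm and nucleus in ectoderm. Called ectoderm isoforms were 5694, 10812 with DESeq2, and 3331 or 3687 without cytoplasm replicate 1 or 3; mesoderm isoforms were 11114, and 7194 without nucleus replicate 1. Total-count scaling moved the share of called genes that were higher from 46.0 to 67.0% in endoderm cytoplasm, 50.4 to 30.1% in nucleus and 50.2 to 37.9% in chromatin. It moved it from 51.9 to 92.1% for the endoderm and 73.2 to 48.7% for the mesoderm difference, from 50.7 to 76.4% and 49.2 to 71.4% between cytoplasm and nucleus in ectoderm and endoderm, and from 56.2 to 86.5%, 41.9 to 71.0% and 42.8 to 73.8% between chromatin and nucleoplasm in hPSC, ectoderm and endoderm. For isoforms it moved from 51.5 to 75.0% in ectoderm, 45.8 to 60.6% in endoderm and 47.6 to 32.0% in mesoderm. Of 58 uncalled member values, 33 passed with TPM, 15 with total counts and 6 with DESeq2.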
